A study of Mus musculus with 40 samples.

Results

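L1MdA_II and L1MdA_III are mouse LINE-1 families of the A subfamily, close relatives of L1MdA_I. The copies described here were taken by name from the annotation of transposable elements in the table of uniquely mapped reads, which gave 5350 copies of L1MdA_II and 8615 of L1MdA_III, or 13965 of 3799629 annotated copies in all. Each was classed by its annotated length as long (5000 bases or more, 2534 copies) or short (11431 copies). The copies nearest to that limit were 4997, 4997 and 4999 bases long on one side and 5000, 5001 and 5001 bases on the other. The same 2 families were also followed as totals in the table that keeps multimapped reads.

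A full-length LINE-1 carries an internal promoter in its 5′ end, an ORF1 that encodes an RNA-binding protein and an ORF2 that encodes an endonuclease and reverse transcriptase, and it copies itself through an RNA. Most insertions in the genome are cut short at their 5′ end and so lack the promoter. In mouse embryonic stem (mES) cells, young LINE-1s are held down by H3K9 methylation, DNA methylation and the HUSH complex, and many of them lie in chromatin at the nuclear lamina.

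RNA was sequenced from mES cells in 2i + LIF, which keeps them in naive pluripotency, and from epiblast-like cells (EpiLCs) differentiated from them with FGF and activin A. The 8 groups were WT, LBRKO (no LBR, the lamin B receptor), TKO (no A-type or B-type lamins: Lmna, Lmnb1 and Lmnb2) and QKO (TKO with Lbr also mutated) at each of these stages. There were 8 WT libraries and 4 libraries of each mutant per stage, 40 in all. TKO and WT cells came from littermates, the Lbr mutation was made with Cas9 in WT and in TKO cells, and all QKO libraries came from 1 clone. The study's supplement gives the QKO clone a frameshift deletion and an in-frame deletion in Lbr. The study reports that immunostaining detected no LBR in it. Each library was 1 culture well, so p-values measure the spread between wells of a line and not between lines or animals. The lines also differ in karyotype. The study's methods give TKO cells an extra chromosome 8, in part with loss of the Y, while WT cells were mostly normal with some that had lost the Y and some that also had extra chromosomes 6 and 8.

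The libraries held 22.6 M to 48.9 M reads assigned to genes, and 2816 to 22976 reads on the copies of both families. In mES cells the RNA of Lmnb1 was at 515 CPM (counts scaled to the size of each library) in WT against 8.47 in TKO and 13.8 in QKO, that of Lmnb2 at 105 against 4.30 and 2.58, and that of Lmna at 57.8 against 15.9 and 19.07. Lbr RNA was lower but present, at 372 CPM in WT mES cells, 209 in LBRKO and 237 in QKO, so RNA alone does not check that deletion. Esrrb, a naive marker, fell from 913 CPM in WT mES cells to 16.0 in WT EpiLCs, while Fgf5, an EpiLC marker, was at 0.095 and 146. WT library 7 stood apart in both stages: it was the highest of its group in most totals below. It was also the highest in reads on old L2 and MIR repeats at least 50000 bases from a gene. In mES cells these were at 7.32 CPM per Mb, against 2.56 to 4.79 in the other WT libraries. In EpiLCs they were at 4.70, against 2.57 to 3.61. Those old repeats, 16540 copies over 2.35 Mb, rose in QKO as well, from 4.06 ± 1.49 (SD, n = 8) to 13.3 ± 1.72 (n = 4) in mES cells and from 3.24 ± 0.68 to 7.76 in EpiLCs, and sums of the copies relative to them are given below.

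Sequences of 4 long copies show how alike the members are and where a short read can tell them apart. A script found the longest open reading frame of each copy in the reference genome (GRCm39). A frame of 3846 bases, of the size of ORF2, was kept by 119 of 1347 long L1MdA_II copies, by 17 of 1187 long L1MdA_III copies and by 2 short copies, or 138 in all, against 361 of 1330 long copies of L1MdA_I. The first 60 bases of that frame are given for L1MdA_II_dup1692, L1MdA_II_dup1323, L1MdA_III_dup4868 and L1MdA_III_dup7296, which are described further on, with capitals for bases unlike those of L1MdA_II_dup1692.
L1MdA_II_dup1692, chr6:22647810-22647869, plus strand: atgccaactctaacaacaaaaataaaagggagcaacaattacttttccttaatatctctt
L1MdA_II_dup1323, chr4:100511693-100511752, minus strand: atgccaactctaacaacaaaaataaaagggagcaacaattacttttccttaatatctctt
L1MdA_III_dup4868, chrX:86973510-86973569, minus strand: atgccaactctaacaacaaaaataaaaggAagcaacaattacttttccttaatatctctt
L1MdA_III_dup7296, chr15:16905864-16905923, minus strand: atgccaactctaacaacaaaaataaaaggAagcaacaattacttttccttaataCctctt

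The stretch of 120 bases with the most differences among the 4 frames, frame bases 2533 to 2652, was picked for those differences. It had 1 base unlike L1MdA_II_dup1692 in L1MdA_II_dup1323, 8 in L1MdA_III_dup4868 and 6 in L1MdA_III_dup7296.
L1MdA_II_dup1692, chr6:22650342-22650461, plus strand: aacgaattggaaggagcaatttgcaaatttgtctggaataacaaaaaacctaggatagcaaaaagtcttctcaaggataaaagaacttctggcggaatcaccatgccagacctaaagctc
L1MdA_II_dup1323, chr4:100509101-100509220, minus strand: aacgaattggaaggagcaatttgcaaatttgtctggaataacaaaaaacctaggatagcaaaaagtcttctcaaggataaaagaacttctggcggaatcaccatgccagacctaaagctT
L1MdA_III_dup4868, chrX:86970918-86971037, minus strand: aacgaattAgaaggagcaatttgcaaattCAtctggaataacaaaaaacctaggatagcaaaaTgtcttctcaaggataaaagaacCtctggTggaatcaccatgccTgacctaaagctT
L1MdA_III_dup7296, chr15:16903272-16903391, minus strand: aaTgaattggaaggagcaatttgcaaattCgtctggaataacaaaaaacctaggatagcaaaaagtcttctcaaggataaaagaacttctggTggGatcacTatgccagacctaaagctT

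Over the whole frame L1MdA_II_dup1692 was 99.17% identical to L1MdA_II_dup1323, 98.67% to L1MdA_III_dup7296 and 97.92% to L1MdA_III_dup4868. L1MdA_III_dup4868 and L1MdA_III_dup7296 were 97.87% identical to each other, so these frames did not group by family. Such likeness limits which copies a uniquely mapped read can reach. Among the long copies that passed the filter on low counts, the median share of 150-base windows that occur at 1 place in the genome was 25.5% for L1MdA_II and 55.2% for L1MdA_III, against 11.1% for L1MdA_I. Uniquely mapped reads made up 43.8% to 53.1% of the family total in the 8 group means of L1MdA_II and 55.1% to 68.1% in those of L1MdA_III. A copy with few reads may therefore have been out of reach of the reads rather than silent.

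The family totals show that L1MdA_II RNA rose in TKO and rose further in QKO, and that L1MdA_III RNA moved the same way to a lesser extent. In mES cells the L1MdA_II total was 58.8, 68.7 and 108 CPM (lowest, median and highest of the 8 WT libraries) and 69.3, 73.4, 83.1 and 88.3 CPM in the LBRKO libraries. It was 315, 267, 316 and 316 CPM in TKO and 551, 448, 496 and 497 CPM in QKO. All TKO libraries lay above all WT libraries and all QKO libraries above all TKO libraries, while LBRKO and WT overlapped. By edgeR's quasi-likelihood test, with Benjamini-Hochberg adjustment over all genes and families, the log2 fold change against WT was 2.05 ± 0.13 (SE, adjusted p = 2.9e-15) in TKO, 2.77 ± 0.13 (adjusted p = 7.2e-20) in QKO and 0.10 ± 0.14 (adjusted p = 0.63) in LBRKO. QKO exceeded TKO by 0.71 ± 0.16 (adjusted p = 9.8e-04). Of all 1142 TE families tested, 2.1% were called higher (adjusted p under 0.05 and over 2-fold) in TKO, 25.1% in QKO and 0.525% in LBRKO, and 4.47% in QKO against TKO.

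The L1MdA_III total was 86.8, 98.3 and 167 CPM (lowest, median and highest) in WT mES cells, 183, 171, 192 and 201 CPM in TKO and 309, 278, 329 and 299.9 CPM in QKO. Here too WT, TKO and QKO did not overlap, while the LBRKO libraries, at 106 to 133 CPM, lay among those of WT. The log2 fold change of the L1MdA_III total was 0.81 ± 0.14 (adjusted p = 1.4e-05, below the 2-fold limit of a call) in TKO and 1.51 ± 0.13 (adjusted p = 3.4e-12) in QKO by the same test.

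In EpiLCs the rise in TKO was smaller and that in QKO was kept. The L1MdA_II total was 96.6, 129 and 154 CPM in WT (lowest, median and highest), 314, 271, 249.6 and 273 CPM in TKO, and 926, 664, 585 and 673 CPM in QKO. The TKO libraries lay above all WT libraries and QKO library 1 stood above the other QKO libraries. The log2 fold change was 1.11 ± 0.13 (edgeR, adjusted p = 7.4e-08) in TKO, 2.47 ± 0.13 (adjusted p = 2.0e-18) in QKO and 0.42 ± 0.14 (adjusted p = 0.020) in LBRKO, and QKO exceeded TKO by 1.36 ± 0.16 (adjusted p = 8.7e-09). The LBRKO value turned on library 3, at 240 CPM against 129 to 168 CPM in the others, and was 0.21 without it (adjusted p = 0.29). For L1MdA_III the values were 0.27 ± 0.14 (adjusted p = 0.21) in TKO and 1.35 ± 0.13 (adjusted p = 4.9e-11) in QKO. Of all families, 0.701% were called higher in TKO EpiLCs, 26% in QKO, 0.876% in LBRKO, and 21.8% in QKO against TKO.

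**Figure D1:**
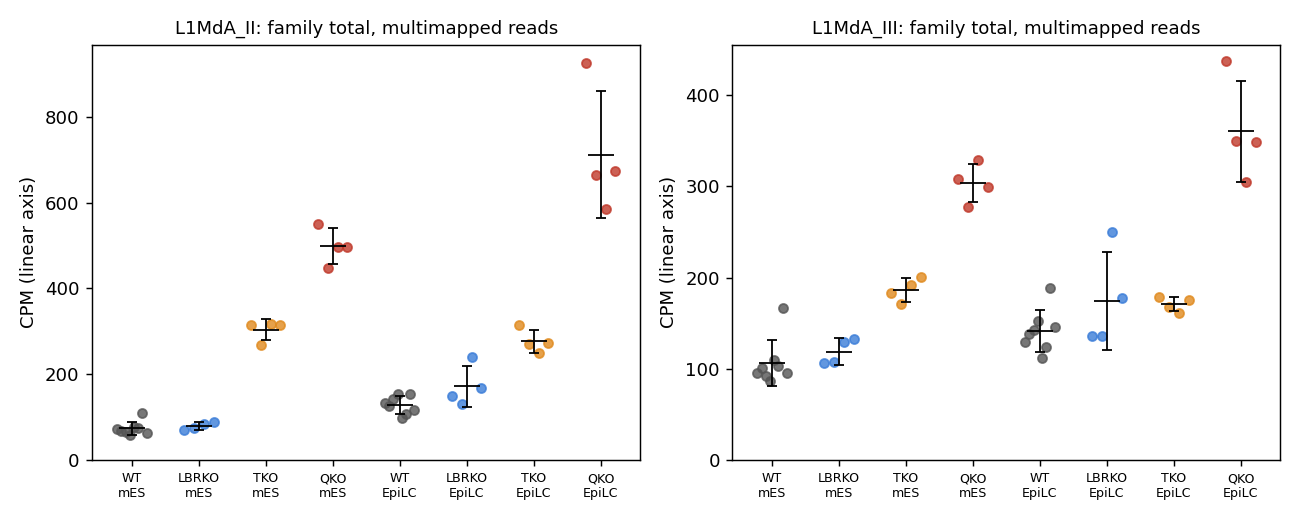
Family totals of L1MdA_II (left) and L1MdA_III (right) from multimapped reads, in CPM on a linear axis, with 1 point a library and the mean ± SD of each group. WT and LBRKO lie together at the bottom in mES cells, TKO and QKO stand above them for L1MdA_II in both stages, and for L1MdA_III in EpiLCs TKO lies among the WT points while QKO stands above.

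Differences between differences were tested in the same edgeR fit. The effect of TKO on L1MdA_II was smaller in EpiLCs than in mES cells, by 0.94 ± 0.20 on the log2 scale (interaction of stage and TKO -0.94, adjusted p = 0.0010), while that of QKO was not shown to differ between the stages (-0.29, adjusted p = 0.30). QKO exceeded the sum of the TKO and LBRKO effects on L1MdA_II by 0.61 ± 0.21 (adjusted p = 0.040) in mES cells, where 12 of 20 fits without 1 library lost the call, and by 0.94 ± 0.21 (adjusted p = 8.8e-04) in EpiLCs. For L1MdA_III the same quantity was 0.55 (adjusted p = 0.074) in mES cells and 0.77 (adjusted p = 0.0059) in EpiLCs.

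Set beside their relatives in mES cells, L1MdA_II rose less than L1MdA_I and more than L1MdA_III, which stood near the older families. The log2 fold changes of the family totals in TKO and in QKO were 3.07 and 3.46 for L1MdA_I, 2.05 and 2.77 for L1MdA_II, 0.81 and 1.51 for L1MdA_III, 1.22 and 2.13 for L1MdA_IV, 0.68 and 1.42 for L1MdA_V, 0.38 and 1.12 for L1MdA_VI, and 0.38 and 0.93 for L1MdA_VII. L1MdA_III thus lay below L1MdA_IV and near L1MdA_V, and differences between families were not tested.

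The uniquely mapped reads give the question of length, and sums over all 13965 copies give it without a filter. The long copies held 14.7 Mb and the short copies 11.4 Mb of sequence. In mES cells the long copies together were at 32.1, 41.0 and 83.5 CPM in WT (lowest, median and highest), 47.8, 43.7, 59.4 and 60.3 CPM in LBRKO, 153, 140.1, 139 and 161 CPM in TKO, and 275, 251, 266 and 258 CPM in QKO. The short copies were at 59.99, 75.6 and 128 CPM in WT, 91.1, 78.7, 112 and 107 CPM in LBRKO, 129.8, 136, 134 and 149 CPM in TKO, and 214, 240.3, 268 and 235 CPM in QKO. In both classes every TKO library exceeded every WT library and every QKO library exceeded every TKO library. The long copies rose by 1.77 in TKO and 2.60 in QKO on the log2 scale, the short copies by 0.83 and 1.62 (all with adjusted p = 0.00909, two-sided exact permutation test over libraries, adjusted over 72 tests of sums). That p follows from 0.0040, the smallest that 4 against 8 libraries can give. QKO exceeded TKO by 0.83 for long and 0.80 for short copies (adjusted p = 0.040, exact permutation test, from the smallest possible p of 0.0286), and LBRKO differed from WT by 0.27 and 0.32 (adjusted p = 0.35 and 0.17). The WT libraries fell into 2 sets: the long sums of libraries 1 to 4 (32.1 to 39.8 CPM) all lay below those of libraries 5 to 8 (42.2 to 83.5 CPM), and so did their reads assigned to genes (27.7 M to 33.1 M against 39.4 M to 46.6 M, with 39.7 M to 47.96 M in LBRKO). Against libraries 1 to 4 the LBRKO difference of the long copies was 0.55 (adjusted p = 0.037, exact permutation test) and against libraries 5 to 8 it was -0.01 (adjusted p = 0.97). For short copies these values were 0.49 (adjusted p = 0.069) and 0.14 (adjusted p = 0.63, exact permutation test). Without WT library 7, which leaves 4 libraries of the lower set and 3 of the other, the differences were 0.40 and 0.42 (adjusted p = 0.037 and 0.031, exact permutation test).

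The ratio of long to short within a library removes scaling that acts on both. In WT mES cells it ran from -1.04 to -0.62 on the log2 scale, in LBRKO from -0.93 to -0.83, in TKO from 0.05 to 0.24 and in QKO from -0.01 to 0.36. Long copies had thus gained on short ones by 0.94 in TKO and by 0.97 in QKO (both adjusted p = 0.00909, exact permutation test), and TKO and QKO overlapped with a difference of 0.03 (adjusted p = 0.74). In EpiLCs the gain was 0.43 in TKO and 0.67 in QKO (adjusted p = 0.00909, exact permutation test), and QKO exceeded TKO by 0.24 (adjusted p = 0.040).

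In EpiLCs the long copies summed to 68.8, 80.2 and 106 CPM in WT (lowest, median and highest), 72.1, 75.6, 159 and 111 CPM in LBRKO, 129, 144, 139 and 148 CPM in TKO, and 420.1, 324, 318 and 349.6 CPM in QKO. LBRKO libraries 3 and 4 lay above all WT libraries and libraries 1 and 2 among them. The log2 differences from WT were 0.81 in TKO and 2.14 in QKO for long copies, and 0.38 (adjusted p = 0.025, exact permutation test) in TKO and 1.47 in QKO for short copies. The remaining 3 of these 4 values had an adjusted p of 0.00909 by the same test. The value of 0.38 was not called with WT libraries 5 to 8 alone (0.32), without TKO library 2 or 4 (0.34 to 0.44 over all leave-outs), without chromosomes 6, 8, X and Y (0.14) or without the 10 most abundant copies (0.18).

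**Figure D2:**
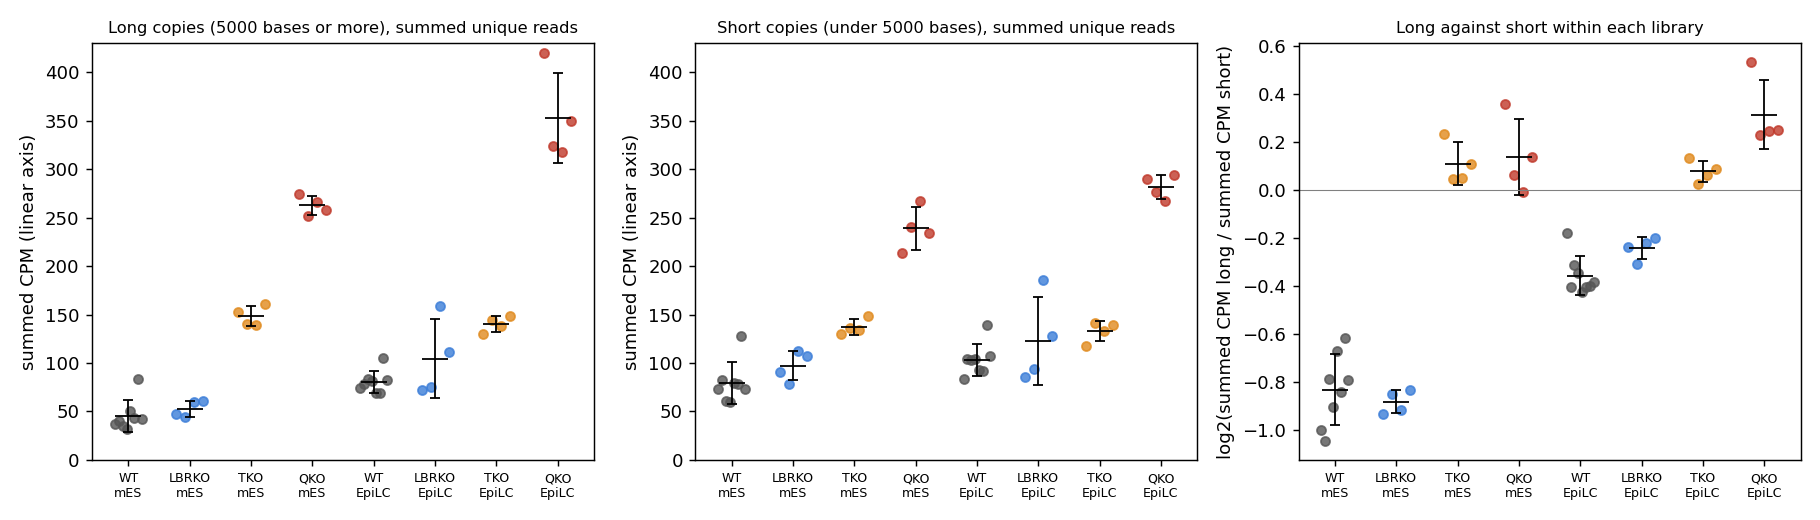
Summed CPM of all long copies (left) and all short copies (middle), and the log2 ratio of long to short (right), with 1 point a library and the mean ± SD of each group. In mES cells the ratio lies below 0 in all WT and LBRKO libraries and near or above 0 in TKO and QKO.

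Reads on the old L2 and MIR repeats far from genes rose by 0.77 (adjusted p = 0.051, exact permutation test) in TKO mES cells and by 1.77 (adjusted p = 0.018) in QKO mES cells. Taken relative to them, the long copies were still higher than in WT by 1.00 in TKO mES cells, 0.83 in QKO mES cells, 1.01 in TKO EpiLCs and 0.86 in QKO EpiLCs (all adjusted p = 0.010, exact permutation test). The families parted on that scale. Long L1MdA_II copies were higher than in WT by 1.57 in TKO and 1.36 in QKO mES cells and by 1.41 and 1.29 in EpiLCs (all adjusted p = 0.010, exact permutation test). Long L1MdA_III copies differed by 0.24 (adjusted p = 0.11) in TKO and 0.13 (adjusted p = 0.43) in QKO mES cells, and by 0.42 (adjusted p = 0.019) and 0.21 (adjusted p = 0.28) in EpiLCs by the same exact permutation test. Short L1MdA_II copies were higher by 0.63 in TKO and 0.52 in QKO mES cells and by 1.08 and 0.87 in EpiLCs (all adjusted p = 0.010, exact permutation test). Short L1MdA_III copies were lower than in WT by 0.55 (-0.55, adjusted p = 0.010) in QKO mES cells, where every QKO library lay below every WT library, and by 0.33 (-0.33, adjusted p = 0.027) in QKO EpiLCs, with -0.27 (adjusted p = 0.053) in TKO mES cells and 0.24 (adjusted p = 0.035) in TKO EpiLCs by that exact permutation test. The short copies of both families together were not called on that scale in mES cells (0.06 in TKO and -0.14 in QKO), and QKO no longer exceeded TKO in either class or stage (-0.15 to -0.39). This scaling was added after the data had been seen.

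On the scale of gene reads the class sums rose in both families and at both lengths in QKO, while relative to the old repeats the rise held for L1MdA_II and not for L1MdA_III, as given above. In mES cells the sum of long L1MdA_II copies was 20.7 ± 6.995 CPM in WT, 101 ± 6.38 in TKO and 175 ± 7.33 in QKO, and that of long L1MdA_III copies 24.6 ± 9.51, 47.4 ± 4.27 and 87.4 ± 5.00 (SD, n = 8, 4 and 4). The short copies of L1MdA_II went from 23.3 ± 5.89 to 60.1 ± 3.32 and 112 ± 10.7 CPM, and those of L1MdA_III from 56.0 ± 15.5 to 77.1 ± 4.95 and 127 ± 12.8 CPM. Long L1MdA_II rose by 3.13 and long L1MdA_III by 1.90 on the log2 scale in QKO (both adjusted p = 0.00909, exact permutation test). In TKO mES cells the L1MdA_III libraries overlapped WT, with differences of 1.01 (adjusted p = 0.025) for long and 0.50 (adjusted p = 0.039) for short copies by that exact permutation test. In TKO EpiLCs, L1MdA_III differed from WT by 0.22 (adjusted p = 0.14) for long and 0.04 (adjusted p = 0.74) for short copies by the same test. In QKO EpiLCs it had risen by 1.49 and 0.96 (adjusted p = 0.00909), against 0.21 (adjusted p = 0.28) and -0.33 (adjusted p = 0.027) relative to the old repeats.

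Against the long copies of L1MdA_I, counted the same way, the long copies of both families rose less. The sum of long L1MdA_I copies was 41.7 CPM in WT mES cells, 717 in TKO and 982 in QKO, so the log2 ratio of these families to it fell by 2.35 in TKO and by 1.98 in QKO (adjusted p = 0.00909, exact permutation test). From TKO to QKO the ratio rose by 0.37 in mES cells (adjusted p = 0.040) and by 0.07 in EpiLCs (adjusted p = 0.43). The share of L1MdA_I that unique reads reach also moved, from 66.0% of the family total in WT mES cells to 39.9% in TKO, and its part in this ratio was not tested.

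In mES cells the rise was larger in bins of longer copies, with 1 exception between 4000 and 4999 bases in QKO. In bins of 1000 bases, the sum over all copies rose in QKO mES cells by 1.48 for the 8827 copies under 1000 bases, by 1.58, 1.81, 2.18 and 2.04 for the next 4 bins up to 4999 bases, by 2.45 for the 1314 copies from 5000 to under 6000 bases and by 2.60 for the 1186 copies from 6000 to under 7000 bases, as differences of mean log2 CPM from WT. The 34 copies of 7000 bases or more rose by 4.62, from 0.690 ± 0.281 CPM in WT to 9.05 ± 1.25 in TKO and 15.4 ± 1.13 in QKO. In TKO the values ran from 0.65 in the shortest bin to 1.75 for 6000 to under 7000 bases and 3.85 for the longest copies.

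**Figure D3:**
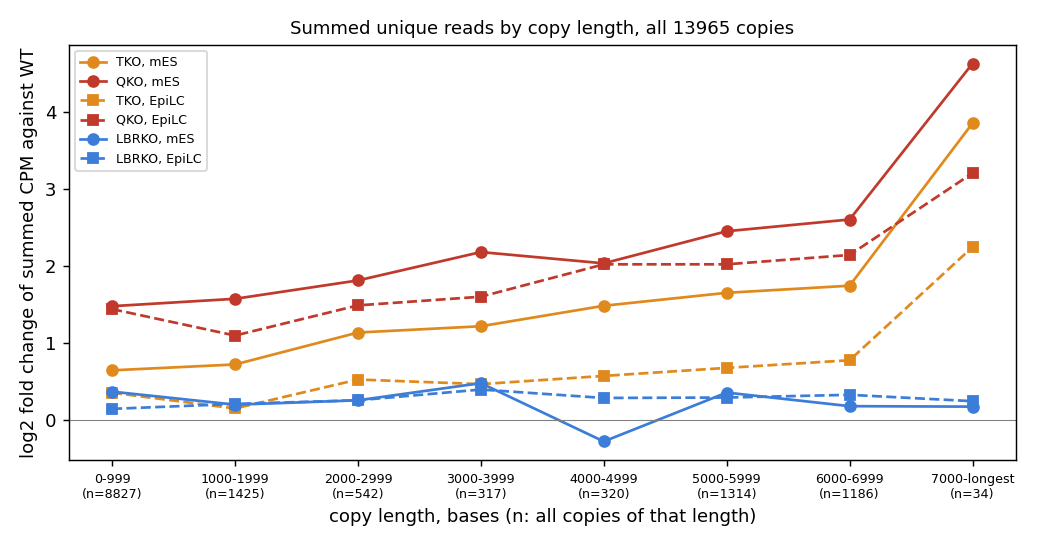
Change of summed CPM against WT of the same stage (log2) by copy length in bins of 1000 bases, over all copies with n printed under each bin, in 6 lines for LBRKO, TKO and QKO in both stages. QKO and TKO lines climb to the right, with dips in single bins, and reach 4.62 and 3.85 for the 34 longest copies in mES cells, while both LBRKO lines stay between -0.27 and 0.48.

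Position went with the size of the rise as well. The 1940 long copies between genes rose by 2.198 in TKO and 2.97 in QKO mES cells, the 219 in a gene on its strand by 1.33 and 2.17, and the 375 in a gene on the opposite strand by 1.11 and 2.07. In WT mES cells the copies in genes had more reads for their length, 5.50 CPM per Mb on the gene's strand and 7.34 on the other against 1.97 between genes. The 136 long copies that keep the frame of 3846 bases rose by 2.18 and 3.08, against 1.73 and 2.55 for the other 2398 long copies. Of the 136, 119 were L1MdA_II copies, and all long L1MdA_II copies together rose by 2.34 and 3.13. The frame was thus not told apart from the family. These are descriptions of sums, with no test between subsets. The libraries were made with a stranded kit, but none of the sources used here gives the strand setting of the counting. Reads of a copy and of a gene on the other strand over it cannot be told apart.

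Single copies can be followed only where reads are enough: 8840 of the 13965 copies had a read in any library, 5125 had none, and 447 passed the filter on low counts. These were 180 of 1347 long and 51 of 4003 short L1MdA_II copies, and 90 of 1187 long and 126 of 7428 short L1MdA_III copies. A copy that is expressed in 1 group only passes through that group and has to differ, so the counts over the 447 describe them and are not a test of the families. In mES cells, 275 of them were called higher in QKO (9 lower) and 177 in TKO (7 lower), where 24.2% and 3.48% of all 131824 copies tested were called higher and 1.36% and 0.689% lower. Over 10-fold were 174 in QKO and 97 in TKO, against 1.95% and 0.924% of all copies. The median log2 fold change over the 447 was 2.36 in QKO and 1.47 in TKO, beside 0.77 and 0.23 over all copies tested. In LBRKO mES cells 2 were called higher and 2 lower, against 0.409% of all copies higher and 0.457% lower, and 23 of the 447 were called higher in QKO than in TKO (0 lower by edgeR, and 0 at an unadjusted p under 0.05 and over 2-fold) against 1.29% of all higher and 0.124% lower. The count of 23 was 7 to 9 without any 1 replicate number. Over 10-fold were 2 in that comparison and 0 in LBRKO by edgeR (4 and 0 at an unadjusted p under 0.05), against 0.203% and 0.025% of all copies.

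By class, in QKO mES cells 153 of 180 long and 26 of 51 short L1MdA_II copies were called higher, with medians of 3.98 and 1.48, and 52 of 90 long and 44 of 126 short L1MdA_III copies, with medians of 1.97 and 0.86. In TKO the counts were 121, 18, 23 and 15 in that order. Of the long L1MdA_I copies 674 of 685 were called higher in QKO. In EpiLCs, 270 of the 447 were called higher in QKO (9 lower) and 83 in TKO (8 lower), where 29.3% and 2.07% of all copies were called higher and 1.4% and 0.557% lower. In LBRKO EpiLCs 12 were higher and 1 lower, against 1.21% and 0.287% of all copies, and 118 exceeded TKO in QKO (1 lower) against 12.6% and 0.551%. Over 10-fold in EpiLCs were 98 in QKO, 17 in TKO, 1 in LBRKO and 16 in QKO against TKO, where 2.44%, 0.408%, 0.119% and 1.65% of all copies were. Leaving out 1 replicate number gave 55 to 67 for TKO, 2 to 10 for LBRKO and 57 to 77 for QKO against TKO. Of the copies called in QKO, 233 were shared by the stages, 84.7% of the mES list and 86.3% of the EpiLC list. Of all 447 copies, 60.4% were called in QKO EpiLCs and 61.5% in QKO mES cells. Of those called in TKO 68 were shared, 38.4% of the mES list and 81.9% of the EpiLC list, where 18.6% of the 447 were called in TKO EpiLCs and 39.6% in TKO mES cells. The overlaps were not tested.

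**Figure D4:**
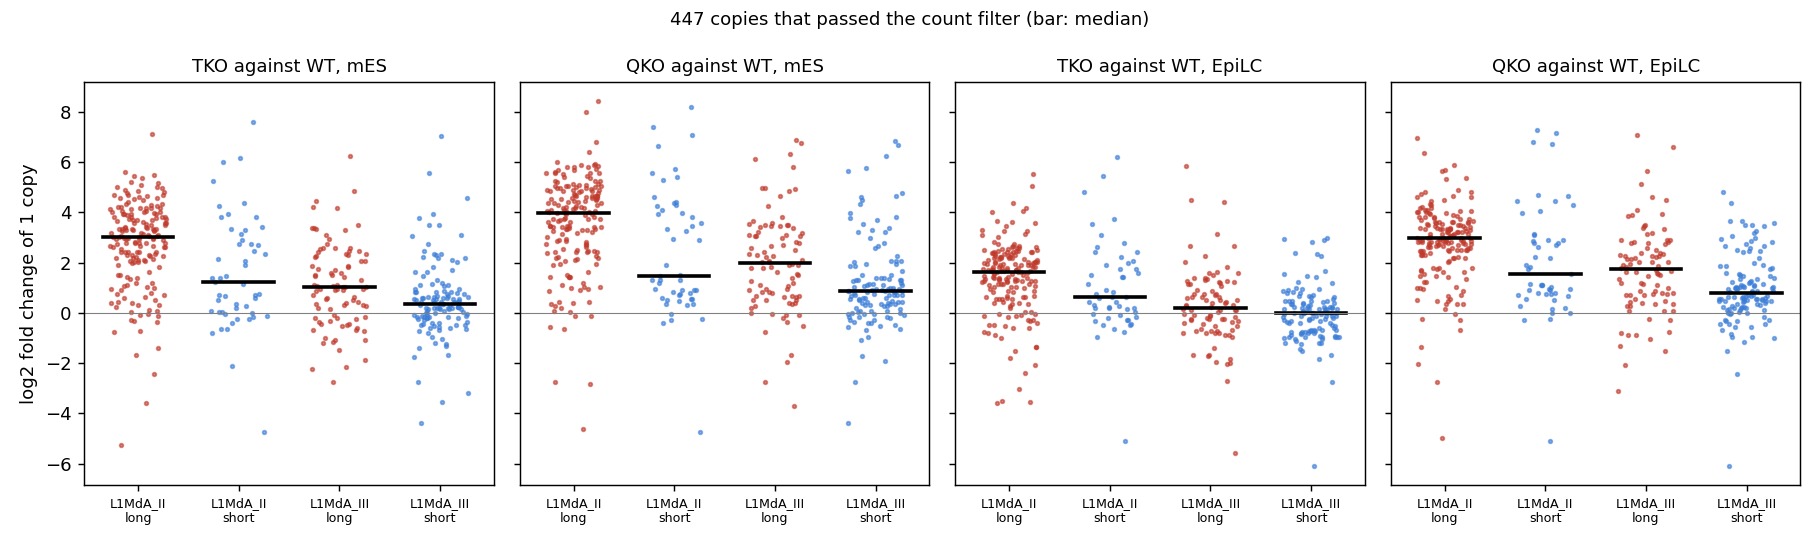
Log2 fold change against WT of each of the 447 copies that passed the filter, by family and length, for TKO and QKO in both stages (1 point a copy, bar at the median). Points of long L1MdA_II lie highest, with medians of 3.03 in TKO and 3.98 in QKO mES cells, and single copies of each class lie below 0.

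Among the long L1MdA_II copies the highest fold was that of L1MdA_II_dup1217, 6559 bases between genes at chr4:56434618-56441176 on the plus strand. It had 1 read in the 8 WT mES libraries together, while the TKO libraries were at 1.09, 1.14, 0.972 and 0.621 CPM and the QKO libraries at 2.21, 3.18, 1.85 and 2.44 CPM. The groups did not overlap, and the ratio of QKO to WT was 709 with a 95% counting interval of 126 to 28090 (intervals cover counting error only). In EpiLCs it was at 3.78, 2.21, 3.50 and 3.17 CPM in QKO against 0 to 0.124 CPM in WT. It was also among the 12 copies called higher in LBRKO EpiLCs, by 2.56 ± 0.45 (edgeR, adjusted p = 6.5e-05).

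L1MdA_II_dup1692, at chr6:22644765-22651743, keeps the 3846-base frame whose start is printed above, and only 4.54% of its 150-base windows are unique. It was at 0 to 0.0678 CPM in WT mES cells, at 1.59, 1.25, 1.15 and 2.12 CPM in TKO and at 3.28, 4.02, 4.08 and 3.57 CPM in QKO, a log2 fold change of 6.78 ± 0.43 (edgeR, adjusted p = 1.6e-23) between QKO and WT. In EpiLCs WT ran from 0.0433 to 0.411 CPM and QKO from 1.63 to 2.42 CPM. The effect of QKO was smaller there, by an interaction of -3.30 ± 0.64 (adjusted p = 3.6e-04). L1MdA_II_dup1323, at chr4:100507233-100513997 with the same frame, was at 0 CPM in 6 of 8 WT mES libraries and at 0.747, 0.192, 0.157 and 0.686 CPM in QKO mES cells. In QKO EpiLCs it was at 0.936, 0.608, 1.01 and 0.925 CPM.

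L1MdA_II_dup3640, 7777 bases at chr10:58863074-58870850 on the minus strand, lies antisense in an intron of Sh3rf3, an E3 ubiquitin ligase gene of the JNK pathway. It had 0 reads in all 8 WT mES libraries and was at 1.07, 1.46, 0.511 and 0.583 CPM in QKO, which is at least 88.7-fold higher against a floor of 3 counts over the WT group. The TKO mES libraries were lower, at 0.0991 to 0.178 CPM, while in EpiLCs TKO was at 1.10, 0.852, 1.30 and 0.878 CPM. That level is not compared with WT EpiLCs here. Sh3rf3 itself rose by 1.09 ± 0.31 (edgeR, adjusted p = 0.0035) in QKO mES cells and by 2.37 ± 0.24 (adjusted p = 2.2e-11) from WT mES cells to WT EpiLCs. In LBRKO and TKO mES cells it differed from WT by 0.90 ± 0.30 and 0.61 ± 0.32 (edgeR, adjusted p = 0.023 and 0.19).

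Of the long L1MdA_III copies, L1MdA_III_dup2895 (chr6:20113248-20120384, minus strand) lies 324231 bases from the nearest gene. It had 2 reads in 1 WT mES library and none in the others, and was at 0.694, 0.714, 0.766 and 0.913 CPM in TKO and at 1.30, 1.19, 1.14 and 0.755 CPM in QKO. TKO and QKO overlapped. The ratio to WT was 113 (30.4 to 947) in TKO and 161 (43.5 to 1342) in QKO, with 95% counting intervals. L1MdA_III_dup7296, at chr15:16901405-16907584 with the 3846-base frame, was at 0.892, 0.357, 0.471 and 0.658 CPM in TKO and at 1.07, 2.18, 1.10 and 1.34 CPM in QKO mES cells, against 5 reads in WT. Its log2 fold change in QKO was 6.10 ± 0.66 (edgeR, adjusted p = 6.7e-12).

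L1MdA_III_dup4868 lies on the strand of Il1rapl1, a synaptic adhesion gene, in its intron (chrX:86969051-86976028). It had reads in every WT mES library, at 0.0981 to 0.431 CPM, and was at 1.39, 1.18, 1.77 and 1.28 CPM in TKO and at 1.88, 1.95, 2.71 and 1.58 CPM in QKO. Il1rapl1 itself was near 0 in all groups, with group means of at most 0.0243 CPM. L1MdA_III_dup2251, at chr4:101778822-101785205, had 2 reads in WT mES cells. It was at 0.132, 0.143, 0.0589 and 0 CPM in TKO and at 1.10, 0.996, 0.589 and 0.583 CPM in QKO mES cells, a difference of 3.24 ± 0.84 (edgeR, adjusted p = 0.025) that was not called without any 1 replicate number (adjusted p = 0.0995 to 0.12). In EpiLCs its QKO libraries were at 0.0327 to 0.280 CPM and overlapped WT.

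**Figure D5:**
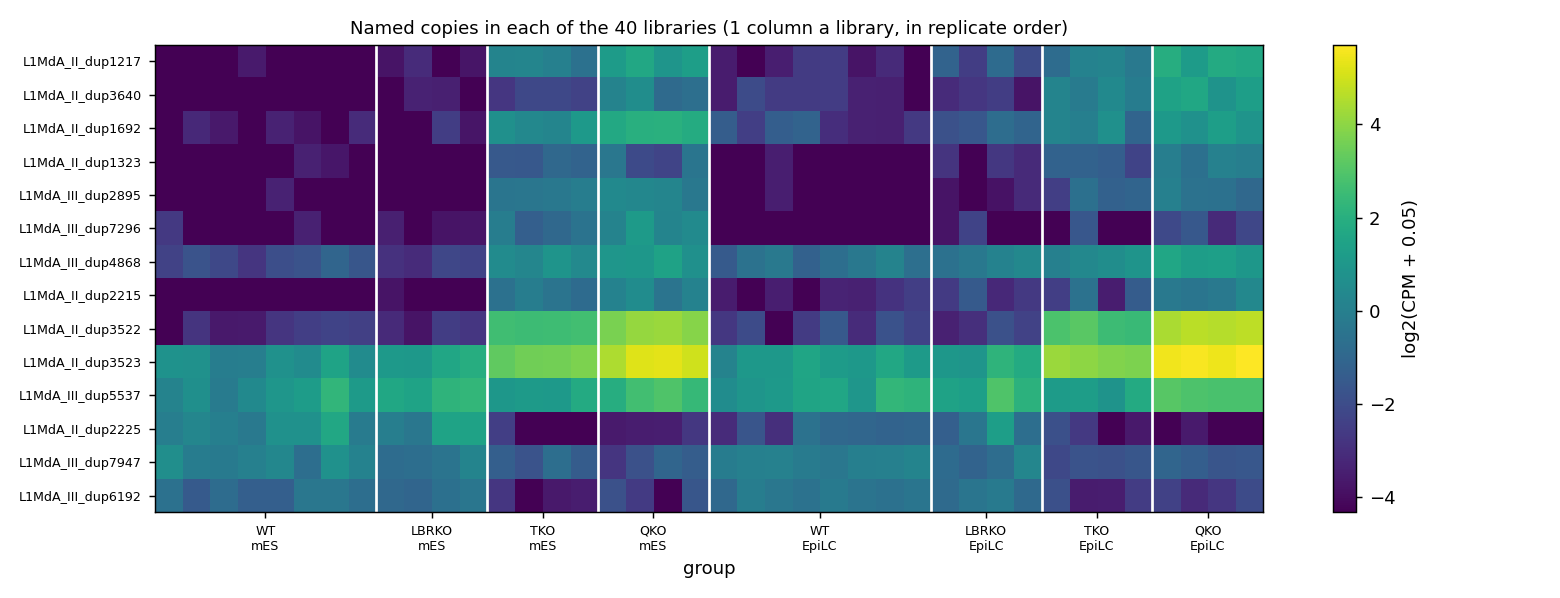
Level of 14 named copies in each of the 40 libraries, as log2(CPM + 0.05) in colour, with 1 row a copy and white lines between the groups. The first 11 rows are brighter in QKO than in WT, while in TKO the row of L1MdA_III_dup5537 looks like WT, and the last 3 rows, L1MdA_II_dup2225, L1MdA_III_dup7947 and L1MdA_III_dup6192, are darker in TKO and QKO.

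The 10 copies with the most reads in a group, picked in each group anew, held 10.8% to 16.7% of the reads of all members there. Of the 10 copies with the highest mean over all 40 libraries, 8 were short and 2 long, and the leading 3 were short copies on chromosome Y. Together these 3 were at 3.63 ± 1.83 CPM in WT mES cells, 6.62 ± 1.92 in LBRKO, 20.0 ± 2.17 in TKO and 54.1 ± 12.0 in QKO, and at 5.16 ± 1.88, 7.34 ± 3.72, 24.6 ± 3.22 and 79.3 ± 4.87 CPM in the same order in EpiLCs. Copies on chromosome Y thus gave 4.75% of the short reads in WT mES cells and 22.9% in QKO. Without them the short copies rose by 0.66 in TKO and 1.32 in QKO mES cells (difference of mean log2 CPM).

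L1MdA_II_dup3522 (712 bases, chrY:90737764-90738475) was at 0 to 0.152 CPM in WT, at 6.11, 5.85, 5.92 and 6.28 CPM in TKO and at 12.8, 17.5, 18.1 and 14.6 CPM in QKO mES cells. The groups were far apart, and QKO EpiLCs were at 21.6 to 26.2 CPM. L1MdA_II_dup3523 (874 bases, chrY:90808355-90809228), in an intron of Erdr1y on the opposite strand, was at 0.892 to 2.79 CPM in WT, 9.61 to 13.2 CPM in TKO and 21.9 to 39.7 CPM in QKO mES cells. L1MdA_III_dup5537, in an intron of the same gene, was at 3.74, 6.24, 7.66 and 5.28 CPM in QKO, which overlapped WT (0.863 to 4.85 CPM). Erdr1y rose by 1.497 ± 0.14 (edgeR, adjusted p = 2.0e-11) in QKO mES cells. Kdm5d, a histone demethylase gene of the Y, was at 0.449 ± 0.169 CPM in WT, 1.69 ± 0.43 in TKO and 19.3 ± 1.499 in QKO mES cells. Ddx3y, Uty and Eif2s3y, other genes of the Y, differed by 0.90, 0.60 and 0.22 (log2) between QKO and WT mES cells. How much of these values goes with the share of cells that keep the Y was not tested, and in bulk RNA more cells of a kind and more RNA per cell cannot be told apart.

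Away from the Y, the highest short copy in fold was L1MdA_II_dup2215 (2475 bases between genes, chr8:40338861-40341335). It had 0 reads in the WT mES libraries and was at 0.628, 0.893, 0.678 and 0.511 CPM in TKO and at 1.04, 1.42, 0.668 and 1.03 CPM in QKO, at least 66.3-fold and at least 102-fold higher against a floor of 3 counts over the WT group. L1MdA_III_dup2975 and L1MdA_III_dup2974 lie next to each other on the same strand, at chr6:41847743-41850006 and chr6:41844781-41847074. The first was at 1.59, 1.39, 1.03 and 1.17 CPM in TKO and 1.82, 1.99, 0.628 and 0.995 CPM in QKO mES cells, against 7 reads in WT. TKO and QKO did not separate there.

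A few short L1MdA_III copies were high in QKO mES cells and almost silent in EpiLCs of every genotype. L1MdA_III_dup6733 (chr13:88814653-88816446) was at 3.44, 2.57, 2.40 and 2.47 CPM in QKO mES cells and at 0.178 to 0.365 CPM in TKO, but at 0 to 0.160 CPM in QKO EpiLCs. QKO exceeded TKO by 3.28 ± 0.54 (edgeR, adjusted p = 3.2e-05) in mES cells. L1MdA_III_dup5774, in an intron of 4930533K18Rik on the opposite strand (chr10:70722929-70726627), was at 0.422, 1.07, 1.14 and 1.06 CPM in QKO mES cells and had reads in 1 QKO EpiLC library only. Its host gene moved with it, rising by 3.64 ± 0.40 (edgeR, adjusted p = 6.3e-10) in QKO mES cells and falling by 3.75 on the log2 scale from WT mES cells to WT EpiLCs.

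Some copies fell. L1MdA_II_dup2225, 5203 bases at chr8:43603417-43608619 and 3172 bases from a gene, was at 0.785 to 3.15 CPM in WT and at 0.736 to 2.78 CPM in LBRKO mES cells. In TKO it was at 0.132 CPM in library 1 and 0 in the others, and in QKO at 0.0325, 0.0383, 0.0393 and 0.103 CPM, a log2 fold change of -5.24 ± 0.68 (edgeR, adjusted p = 5.2e-09) in TKO and -4.61 ± 0.64 (adjusted p = 1.6e-08) in QKO. It fell in WT EpiLCs too, to 0.0684 to 0.646 CPM. L1MdA_III_dup7947 (chr17:22131449-22137828) was at 0.559 to 1.65 CPM in WT mES cells, 0.250 to 0.560 in TKO and 0.0975 to 0.432 in QKO.

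L1MdA_III_dup6192, antisense in an intron of Asap2, a GTPase-activating gene for Arf proteins (chr12:21269087-21270051), was at 0.312 to 0.738 CPM in WT mES cells and at 0.0991, 0, 0.0295 and 0.0365 CPM in TKO. QKO was at 0.227, 0.115, 0 and 0.274 CPM. Asap2 differed by 0.10 in TKO and by -0.20 in QKO mES cells (edgeR, adjusted p = 0.49 and 0.058). L1MdA_III_dup3921 lies on the strand of the mitochondrial calcium uptake gene Micu3 in its intron (chr8:40821313-40826713). In mES cells it differed from WT by -2.23 ± 0.59 (edgeR, adjusted p = 0.0096) in TKO and -1.70 ± 0.55 (adjusted p = 0.016) in QKO, and Micu3 by -0.38 and -0.53. In EpiLCs the reads of the copy were 6.86-fold lower in TKO and 4.34-fold lower in QKO than in WT. Micu3 was there at 20.5 ± 2.02 CPM in WT, 19.6 ± 0.99 in TKO and 19.3 ± 1.27 in QKO.

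The step from naive cells to EpiLCs raised both families in WT cells. The L1MdA_II total rose by 0.81 ± 0.11 (edgeR, adjusted p = 7.1e-08) and that of L1MdA_III by 0.41 ± 0.11 (adjusted p = 0.0018), with 2.36% of all families called higher. Summed unique reads rose by 0.88 for long copies (adjusted p = 0.00909, exact permutation test) and by 0.40 (adjusted p = 0.030) for short ones, and the ratio of long to short by 0.48 (adjusted p = 0.00909, with a raw p of 1.6e-04 that is the smallest 8 against 8 libraries can give). Reads on the old repeats far from genes did not rise in this step (-0.28, adjusted p = 0.24, exact permutation test). With WT libraries 5 to 8 alone, which include library 7 of each stage, the sums rose by 0.61 and 0.28 and were not called (adjusted p = 0.16 and 0.40, exact permutation test). Of the 447 copies, 116 were called higher and 23 lower in WT EpiLCs, where 11% of all copies were called higher and 10% lower, and 23 were over 10-fold higher (1.28% of all). With WT libraries 5 to 8 alone the 116 were 57.

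L1MdA_III_dup516, a short copy antisense in an intron of Platr22, was at 0 to 0.381 CPM in WT mES cells and at 0.396 to 1.16 CPM in WT EpiLCs, and its host rose by 4.68 ± 0.20 (edgeR, adjusted p = 1.2e-23). L1MdA_III_dup6749, on the strand of the transcript Gm41031 in its intron (chr13:97955900-97956286), was at 0.416 to 0.805 CPM in WT mES cells and at 0 to 0.129 CPM in WT EpiLCs. In QKO EpiLCs it was still at 0.576, 0.320, 0.753 and 0.784 CPM, apart from WT by 3.50 ± 0.47 (adjusted p = 6.4e-09). In LBRKO mES cells it was at 0.0501 to 0.213 CPM, below WT by 2.22 ± 0.46 on the log2 scale (-2.22, adjusted p = 0.0018). Gm41031 fell by 2.65 ± 0.28 from WT mES cells to WT EpiLCs and was higher by 2.94 ± 0.32 in QKO EpiLCs than in WT.

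Few single copies passed tests of interaction. In mES cells 1 short copy (L1MdA_III_dup6733) exceeded the sum of the TKO and LBRKO effects in QKO, and in EpiLCs 6 long and 6 short copies did, against 0.794% and 0.874% of all copies tested. The effect of TKO was smaller in EpiLCs for 10 long and 2 short copies, against 0.152% of all copies with a smaller effect. That of QKO was smaller in EpiLCs for 9 long and 3 short copies and larger for 3 long and 4 short ones, against 0.589% and 1.42% of all copies. L1MdA_II_dup4167, at chr13:20852496-20859676, was one of those with a smaller TKO effect: its TKO libraries went from 5.25, 2.21, 1.68 and 1.68 CPM in mES cells to 1.15, 0.817, 0.535 and 0.999 CPM in EpiLCs. L1MdA_II_dup4303, at chr13:102518376-102524780, was at 1.12 to 1.54 CPM in TKO mES cells and at 0.229 to 0.839 CPM in TKO EpiLCs. Its QKO EpiLC libraries were at 8.75, 3.04, 3.41 and 3.14 CPM, with library 1 far above the others.

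The called copies were also set beside the other copies that passed the filter. In WT mES cells copies between genes had fewer reads for their length. Short ones were at 3.09 CPM per Mb, against 14.1 on a gene's strand and 20.6 on the other. A copy with few reads in WT passes the filter through other groups and so tends to be called. How much of the splits below comes from the filter was not tested. Of the long copies called higher in QKO mES cells 63.9% lay between genes, against 36.9% of the other long copies that passed the filter, and of the short copies 61.4% against 17.8%. The called short copies were longer, with a median of 2303 against 686 bases, and lower in GC, at 41.7% against 44.7%. In the long class GC went the other way, at 41.9% in the called against 41.2% in the other copies, and 87.2% of the long copies with a GC of 42% or more were called against 68.3% of those below. The long copies that passed also differed in GC by family, with medians of 42.1% in L1MdA_II and 41.1% in L1MdA_III. Of the 29 long copies that passed and keep the 3846-base frame, 26 were called higher in QKO mES cells, beside 75.9% of all long copies that passed. Among the 29 were 25 L1MdA_II copies, and 85% of all long L1MdA_II copies that passed were called. By a longest frame of 3000 bases or more the long copies hardly differed, with 78.4% called against 75.3% of those below. These are descriptions with no test, and they rest on the copies that had reads.

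A list of genes known to hold LINE-1s down or to activate them was read in the same libraries. Of its 45 genes 44 were found and 42 tested. The 15 genes of H3K9 methylation and HUSH (among them Setdb1, Trim28, Ehmt1, Ehmt2 and Tasor) differed from WT by less than 2-fold in each mutant. Their log2 fold changes ran from -0.24 to 0.43 in TKO mES cells and from -0.60 to 0.72 in QKO mES cells, where 2 and 10 of them had an adjusted p under 0.05 (edgeR; 3 and 10 at an unadjusted p under 0.05). In LBRKO mES cells Dnmt3l (2.88 ± 0.10) was called higher and Dppa3 (-1.31), Piwil4 (-1.54) and Mael (-1.01) lower, where 3.06% of all genes were called higher and 3.25% lower. In TKO mES cells 2 genes were called higher, Dnmt3l (1.32 ± 0.10), a cofactor of de novo DNA methylation, and Piwil2 (1.12 ± 0.09), a germline piRNA-binding protein, and 2 lower, Piwil4 (-1.20) and Tdrd1 (-2.10), both of the piRNA pathway. In QKO mES cells Dnmt3l (2.28 ± 0.10) and Piwil2 (1.81 ± 0.08) were again higher, and Tex15 (-1.16) and Mov10l1 (-1.23), of the same germline pathway, lower. Over all genes tested 2.68% were called higher and 3.77% lower in TKO and 10.6% and 6.66% in QKO mES cells. In QKO EpiLCs 7 genes were called higher. These were 3 of DNA methylation, Dnmt3l (2.07 ± 0.10), Dppa3 (1.99 ± 0.23), which limits maintenance methylation, and Tet1 (1.02 ± 0.14), which oxidises methylcytosine, and 4 of germline and piRNA silencing, Morc1 (1.93 ± 0.06), Tex19.1 (1.504 ± 0.14), Piwil2 (1.39 ± 0.08) and Tdrd9 (1.16 ± 0.28), where 13% of all genes were called higher and 8.16% lower. In TKO EpiLCs Dppa3 alone was called (higher, 1.37 ± 0.24), where 1.44% of all genes were called higher and 1.48% lower. In LBRKO EpiLCs Dnmt3l (2.12 ± 0.10), Tet2 (1.30 ± 0.15) and Morc1 (1.78 ± 0.06) were called higher, where 3.04% of all genes were and 2.63% were lower.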

How the data were processed

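RNA-seq libraries of mES cells and EpiLCs (40) were analysed from 3 deposited tables of raw counts. Per the study's methods, the authors trimmed reads with cutadapt 2.5, aligned them to GRCm39 with STAR 2.7.10a keeping 1 hit, and counted genes and single TE copies with featureCounts 1.6.4; family counts came from reads with several hits, counted with TEcount. The deposited counts were not normalized. The strand setting of the counting is not given in the sources used here. No column of the tables was left unused (0).

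Members were all rows named L1MdA_II or L1MdA_III; members and gene lists were chosen with earlier results of these data known. Here edgeR 4.0.16 (R 4.3.3) was fitted over all genes and families, over all TE copies with library sizes and TMM factors of the gene table, and over genes, after filterByExpr, with 8 groups and no block. Calls need an adjusted p under 0.05 and over 2-fold. Summed CPM, scaled by the effective library sizes of the gene table, were compared by exact two-sided permutation tests (scipy 1.17.1). The fit of single copies was tested on simulated counts with known folds. The permutation tests of sums were not. Copies were named by rule: highest fold by family and length among called, non-overlapping copies at 0.5 CPM or more, the lowest folds, the highest means, and their host genes. L1MdA_II_dup1323, L1MdA_III_dup4868 and L1MdA_III_dup7296 also carry the printed frames. Gene names came from GENCODE M39 (56017 of 56748 identifiers). Sequences were read from GRCm39, and windows of 150 bases were taken every 10 bases. Alternatives covered DESeq2 1.42.0, scaling, filters, WT subsets, a replicate block, length limits, positions and left-out libraries. Same-numbered libraries were not paired by the labels, and no comparison had every pair's correlation over 0.1. Intervals and floors (3 counts) cover counting error only.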

Additional observations from a re-analysis of the deposited data

Results flagged for a closer look

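WT library 7 was the highest of the 8 WT mES libraries, by a gap that is large against the range of its group, in many measures. Its family totals were 108.3 CPM for L1MdA_II and 166.58 CPM for L1MdA_III. Its summed unique reads were 37.016 CPM for long and 37.143 CPM for short L1MdA_II copies, 46.479 CPM for long and 90.878 CPM for short L1MdA_III copies, and 83.495 CPM for all long and 128.02 CPM for all short copies. Single copies that stood out in it were L1MdA_II_dup2225 at 3.146 CPM, L1MdA_III_dup5537 at 4.8458 CPM, L1MdA_II_dup3523 at 2.7908 CPM, L1MdA_III_dup3742 at 3.8817 CPM, L1MdA_III_dup2815 at 2.3341 CPM and L1MdA_III_dup4229 at 2.1311 CPM. WT EpiLC library 7 stood out in the same way, with 55.503 CPM for long L1MdA_III copies, 105.55 CPM for all long and 139.16 CPM for all short copies, and 2.5987 CPM for L1MdA_III_dup3826. Of 270 groups of values tested, 32 held such a library, and chance gives about 1 in 20 groups. The groups were not independent, since totals, sums and single copies came from the same libraries, so the count of 32 cannot be set against that rate.

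Among the mutants, TKO mES library 2 was the lowest for the L1MdA_II family total at 267.41 CPM, and QKO mES library 1 the highest for long L1MdA_II copies at 186.03 CPM. The same QKO library was high for L1MdA_III_dup7664 at 1.0073 CPM and L1MdA_III_dup6733 at 3.4444 CPM, and low for L1MdA_III_dup5774 at 0.42242 CPM. QKO mES library 2 was low for L1MdA_III_dup3638 at 0.11493 CPM. TKO mES library 4 was high for L1MdA_III_dup5537 at 3.4705 CPM, library 2 for L1MdA_II_dup4303 at 1.5351 CPM and library 1 for L1MdA_II_dup4167 at 5.2521 CPM. TKO EpiLC library 1 was low for L1MdA_II_dup4570 at 0.17655 CPM. In QKO EpiLCs, library 1 was high for L1MdA_II_dup4303 at 8.7471 CPM, library 4 for L1MdA_II_dup2215 at 1.2328 CPM and library 3 for L1MdA_II_dup5046 at 0.49115 CPM, while library 2 was low for L1MdA_II_dup552 at 0.63957 CPM.

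Effects that differed between groups by edgeR's test of the difference (adjusted p under 0.05) were found in the family totals and in single copies. In the totals QKO exceeded the sum of the single effects on L1MdA_II by 0.61 in mES cells and 0.94 in EpiLCs, and on L1MdA_III by 0.77 in EpiLCs. The effect of TKO on L1MdA_II changed by -0.94 from mES cells to EpiLCs. Among the copies named by rule, QKO exceeded the sum of the single effects by 3.51 for L1MdA_III_dup6733 in mES cells, and in EpiLCs by 4.61 for L1MdA_III_dup2787, 2.07 for L1MdA_II_dup3522, 1.21 for L1MdA_II_dup3523, 4.198 for L1MdA_III_dup6749 and 2.00 for L1MdA_II_dup4303. From mES cells to EpiLCs the effect of TKO changed by -2.98 for L1MdA_II_dup1692, -4.04 for L1MdA_III_dup2975, -5.19 for L1MdA_II_dup2215, -2.82 for L1MdA_II_dup4167 and -2.58 for L1MdA_II_dup4303. The effect of QKO changed by -3.98 for L1MdA_II_dup640, -4.63 for L1MdA_III_dup2251, -3.30 for L1MdA_II_dup1692, -2.22 for L1MdA_III_dup2975, -4.22 for L1MdA_II_dup2215, 3.88 for L1MdA_III_dup6749 and -3.38 for L1MdA_II_dup5046.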

How the results depend on the processing

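The rises of both family totals in QKO, of L1MdA_II in TKO, of the long sums in TKO and QKO and of the ratio of long to short in TKO and QKO kept their direction and their side of the threshold in all alternatives run on each of them. No named copy changed direction (24 values lost the call and 781 did not, and the 24 were all for QKO against TKO in mES cells). Reads on distal L2 and MIR copies as the scale, an alternative chosen after seeing the data, turned QKO against TKO to -0.18 (mES) and -0.15 (EpiLC) for long and -0.20 and -0.39 for short copies and short copies in QKO mES cells to -0.14, and ended the calls of short copies in TKO mES cells (0.059) and QKO EpiLCs (0.19). That scale was applied to the sums and not to the family totals. On it L1MdA_III in QKO mES cells differed from WT by 0.13 for long (adjusted p = 0.43) and -0.55 for short copies (adjusted p = 0.010, exact permutation test). The causes of these and the next changes were not tested.

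Counts of copies called higher are given in the order LBRKO, TKO and QKO against WT and QKO against TKO, first for mES cells and then for EpiLCs, and WT EpiLC against WT mES last. Over 10-fold they were 0, 97, 174 and 2, then 1, 17, 98 and 16, and 23. Among only those of the 447 copies that lie over 5000 bases from genes they were 0, 109, 154 and 10, then 3, 54, 154 and 55, and 63. The looser filter, a total of 10 reads, was passed by 1171 long and 712 short L1MdA_II copies and by 916 long and 1168 short L1MdA_III copies. Out of this larger set, 846 and 12 were called higher for QKO mES against WT and TKO. In EpiLCs these were 782 and 67, and 252 for the stage. A higher count there is thus not a higher share than among the 447. For QKO against TKO, TMM over the TE copies gave 7 in mES cells and 38 in EpiLCs, and DESeq2 36 in mES cells. WT replicates 1 to 4 gave 22 in LBRKO mES cells and 47 in TKO EpiLCs, and WT replicates 5 to 8 gave 0 in LBRKO mES cells, 6 in LBRKO EpiLCs and 57 for the stage. Without chromosomes 6, 8, X and Y, LBRKO mES cells had 0.

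With WT replicates 1 to 4, L1MdA_II in LBRKO EpiLCs was 0.32 and its synergy in mES cells 0.45 (both lost), while its stage-by-QKO term (-0.56), L1MdA_III in LBRKO mES cells (0.35) and its stage-by-TKO term (-0.73), and the long sum in LBRKO mES cells (0.55) passed. With WT replicates 5 to 8, the stage-by-TKO term of L1MdA_II (-0.68), the stage effect on L1MdA_III (0.20) and on the long (0.61) and short sums (0.28), and the short sum in TKO EpiLCs (0.32) were lost, while the synergy of L1MdA_III in mES cells (0.71) and the ratio of long to short in LBRKO EpiLCs (0.16) passed. A fit of only the 2 groups gave 0.44 for L1MdA_II in LBRKO EpiLCs (lost), and DESeq2 -0.57 for the stage-by-TKO term of L1MdA_III (passed). Copies far from genes gave ratios of 0.16 (LBRKO EpiLC) and -0.17 (LBRKO mES), which passed, and 0.071 (QKO against TKO, EpiLC), which was lost. With long set at 6000 bases the ratios were 0.10 (LBRKO EpiLC, passed) and 0.15 (QKO against TKO, EpiLC, lost). The short sum in TKO EpiLCs was lost without chromosomes 6, 8, X and Y (0.14) and without the 10 most abundant copies (0.18).

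With the replicate block, copies called higher were 17 in LBRKO mES cells, 34 in LBRKO EpiLCs, 55 in TKO EpiLCs and 41 for QKO against TKO in mES cells, and L1MdA_III passed in LBRKO EpiLCs (0.38), in TKO EpiLCs (0.36) and in its stage-by-TKO term (-0.54). The numbers do not pair the samples: the correlation of same-numbered libraries ran from -0.34 to 0.47, and every library correlated best with its own number only for QKO against TKO in EpiLCs.

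Leaving out 1 library or replicate number, copies called higher ranged from 0 to 3 in LBRKO mES cells, 2 to 10 in LBRKO EpiLCs, 55 to 67 in TKO EpiLCs, 7 to 9 (mES) and 57 to 77 (EpiLC) for QKO against TKO. The L1MdA_II values ranged from 0.21 to 0.55 in LBRKO EpiLCs (lost without LBRKO library 3) and from 0.51 to 0.67 for its synergy in mES cells (lost in 12 of 20). For L1MdA_III they ranged from 0.081 to 0.43 in LBRKO EpiLCs (passed without LBRKO library 1 or 2 or WT library 7) and from -0.66 to -0.47 for its stage-by-TKO term (passed without WT mES library 7). In LBRKO mES cells the long sum ranged from 0.20 to 0.40 and the short sum from 0.25 to 0.42 (both passed without WT library 7). The short sum in TKO EpiLCs ranged from 0.34 to 0.44 (lost without TKO library 2 or 4), and the ratio in LBRKO EpiLCs from 0.10 to 0.14 (passed without WT library 1). Sums for QKO against TKO cannot pass with 3 libraries in a group (adjusted p = 0.075, exact permutation test). They ranged from 0.80 to 0.87 (mES) and 1.24 to 1.37 (EpiLC) for long copies and from 0.74 to 0.85 and 1.03 to 1.12 for short ones.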
